A study of Sus scrofa with 6 samples.

Results

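Cytokines are secreted proteins through which immune and tissue cells signal to each other, chemokines are the cytokines that direct cell migration, and both act through receptors on the cell surface. The genes described here are the interleukins and their receptors (symbols beginning IL and a number), the chemokines and chemokine receptors (CCL, CXCL, CCR and CXCR), the ligands and receptors of the tumour necrosis factor (TNF) family, the colony stimulating factors, and leukaemia inhibitory factor, LIF. They were taken by symbol from the array's annotation, with CCL5 and CCL28 left out. The symbol rule uses measured values only to take the brightest probe set of a gene with several. The genes were, however, chosen with earlier results of these data known. The rule gave 67 genes of the 6765 with a probe set of a single symbol, measured by 78 of 23999 probe sets. LIFR, the LIF receptor, had no such probe set.

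RNA came from ovary and from uterine tissue labelled myometrium, the muscle wall of the uterus, of sows that were not pregnant, early pregnant or late pregnant. There were 6 Affymetrix arrays, 1 for each tissue and stage, from 9 pigs by the design text, 3 of them at each stage. The sources used here do not give the day of pregnancy, the breed or the age of the sows, or whether the RNA on an array came from 1 pig or a pool. No treatment or genetic change is stated. Values are MAS5 signals, intensities on a linear scale that the authors had brought to a common level on all arrays. A signal at or under 81.7, the 40th percentile of all signals, is called under the floor. A ratio against such an array is written as "at least", with the floor in place of the lower signal. Where 3 signals of a tissue are given, they are in the order non-pregnant, early pregnant, late pregnant.

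In the reproductive tract, chemokines and cytokines are known for recruiting leukocytes to the corpus luteum, the steroid-producing gland left after ovulation, and to the endometrium, the inner lining of the uterus. LIF and interleukin 6 both signal through a receptor chain called gp130 and the JAK and STAT proteins. Tumour necrosis factor and interleukin 1 act through NF-kappa-B, a transcription factor held in the cytoplasm by inhibitors. The pig conceptus attaches to the uterine surface without invading it and secretes interferon gamma and cytokines of its own in early pregnancy.

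The arrays labelled myometrium are called uterine arrays below, since markers of uterine epithelium were high on them. Of 14 tested uterine epithelium markers, 10 were higher on the uterine arrays (against 2.23% of all tested probe sets) and 0 in ovary (against 2.84%). Of 11 smooth muscle markers, 0 were called by limma in either direction (6 had an unadjusted p under 0.05). The estimates of all 11 lay toward ovary, with a median log2 difference of 0.86, ovary minus uterine. In ovary, 9 of 13 luteal and granulosa cell markers were higher. The marker lists were chosen with earlier results of these data known, so these counts are not an independent test of the tissues. On the uterine arrays, the summed signal of 7 trophoblast and placenta markers was 1548, 28808 and 41904. The 3' to 5' ratio of GAPDH, a measure of RNA quality, was 2.33, 1.99 and 1.51 in ovary and 1.52, 1.70 and 1.53 on the uterine arrays. For the hybridisation controls, the non-pregnant array of the ovary lay 0.50 above the mean (log2), while the other 5 lay between -0.29 and 0.069.

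Chemokines and the receptors of interleukins and TNF ligands were above the floor more often than the interleukins. Of the 67 genes, 26 lay above the floor on all 6 arrays, 24 on some and 17 on none. Above it on all arrays were 10 of 17 chemokines, 7 of 13 interleukin receptors and binding proteins, 4 of 5 TNF receptors, 3 of 18 interleukins, 1 of 7 chemokine receptors and 1 of 4 TNF ligands. The genes under the floor on every array were TNF itself, the colony stimulating factors CSF2 and CSF3, the chemokines CXCL8 and CCL25, the lymph node homing receptor CCR7, the interleukins IL2, IL4, IL5, IL12A, IL12B, IL13 and IL17A, and the receptors IL2RA, IL6R, IL7R and IL18R1. The non-pregnant uterine array had the most genes above the floor, 44 (65.7%, against 61.6% of all probe sets), and the late pregnant ovary array the fewest, 31 (46.3%, against 57.4%). Of the 50 genes above the floor on some or all arrays, 12 were brightest on the non-pregnant ovary array (24.0%, against 16.1% of all such probe sets), 12 on the non-pregnant uterine array (24.0%, against 26.4%) and 1 on the late pregnant ovary array (2.0%, against 11%).

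**Figure D1:**
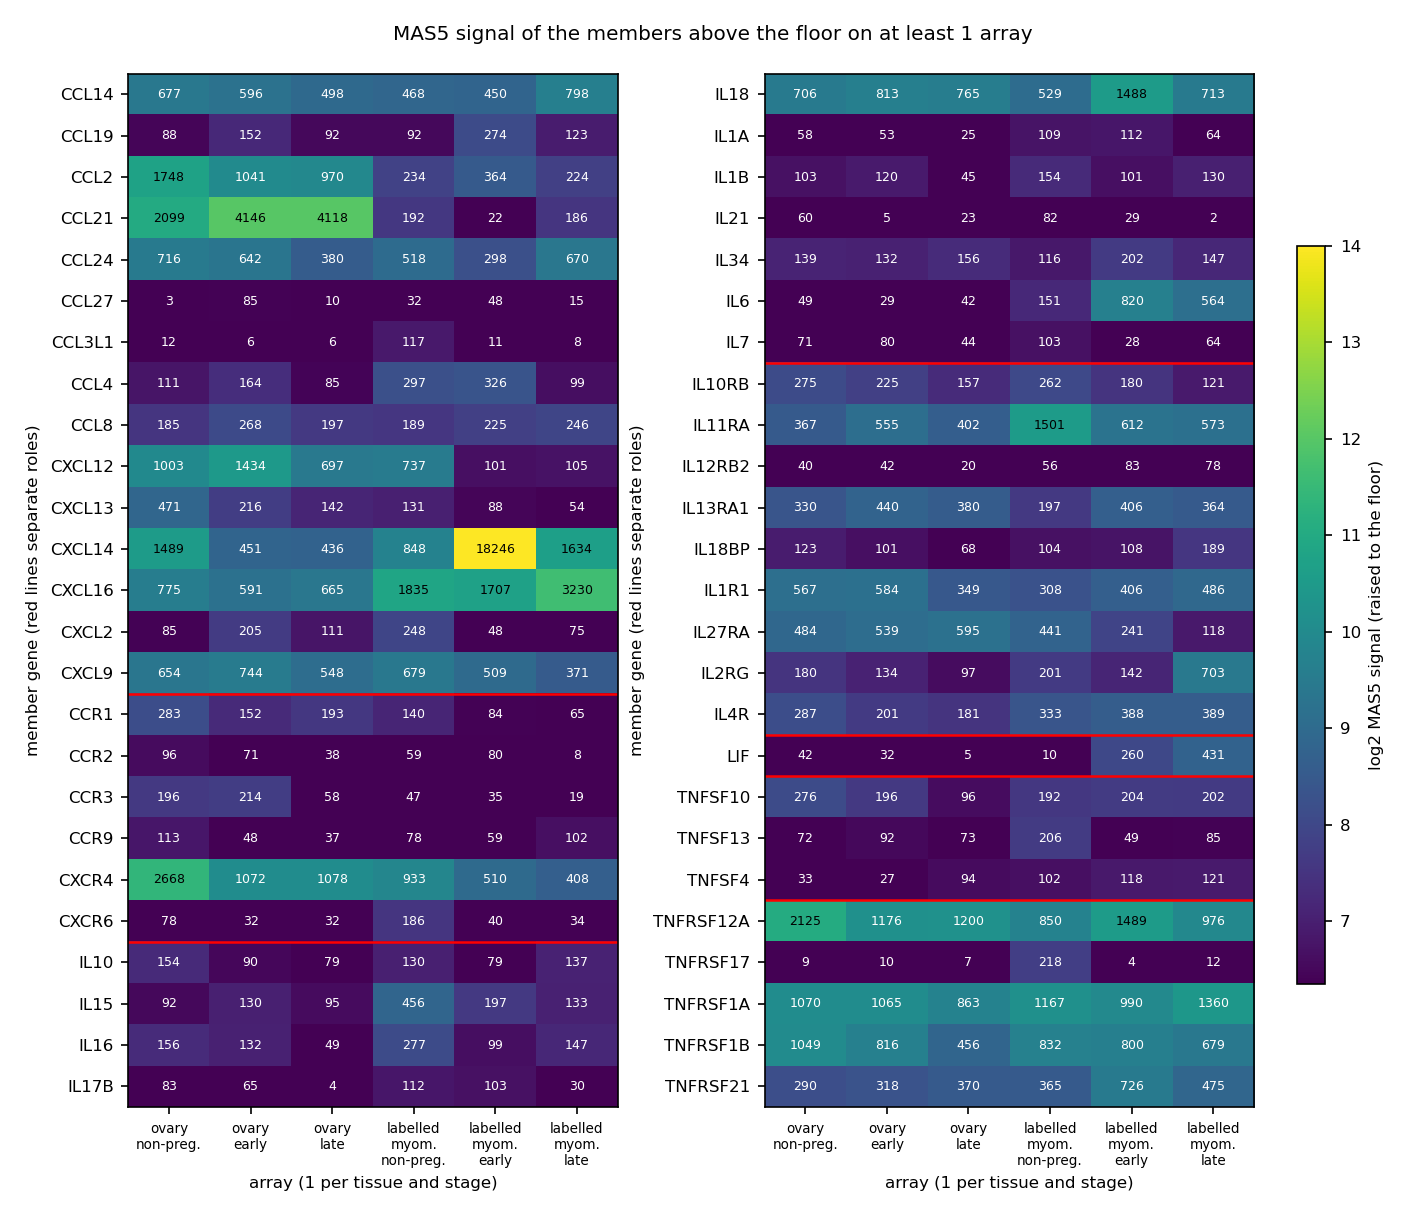
MAS5 signal of the 50 genes above the floor on at least 1 array, with a row for each gene grouped by role, a column for each of the 6 arrays, the signal printed in each cell and colour giving its log2 value raised to the floor. CCL21 is bright on the 3 ovary arrays, CXCL14 reaches 18246 on the early pregnant uterine array, and IL6 and LIF lie under the floor on all ovary arrays.

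Between the tissues, the chemokines CCL21 and CCL2 and the chemokine receptor CXCR4 were higher in ovary, and the chemokine CXCL16 was higher on the uterine arrays. CCL21 differed by 4.53 ± 0.45 (SE) on the log2 scale, CCL2 by 2.18 ± 0.35, CXCR4 by 1.33 ± 0.25 and CXCL16 by -1.68 ± 0.28, ovary minus uterine. Of the 67 genes, 42 lay above the floor on at least 2 arrays and were tested. Of these, 3 were higher in ovary, where 2.84% of all tested probe sets were called, and 1 on the uterine arrays, where 2.23% were. The median difference of the 42 was -0.12, against 0.013 over all probe sets tested. The test was limma's, fitted to 15882 probe sets with tissue and stage as terms and Benjamini-Hochberg adjustment. Because the 3 arrays of a tissue differ in stage, its p-values rest on how alike the tissue difference was at each stage, not on replicate animals.

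CCL21, a chemokine made by lymphatic endothelium that attracts dendritic cells and T cells, read 2099, 4146 and 4118 in ovary. On the uterine arrays it read 191.7, 21.7 and 186.5, the early pregnant signal lying under the floor. The tissues did not overlap, and the difference was at least 23.1-fold, with the floor in place of that signal (adjusted p = 0.0118 by limma). CCR7, the receptor of CCL21, lay under the floor throughout, and CCL19, the other ligand of CCR7, did not share the pattern, with 87.5, 151.9 and 92.0 in ovary and 92.4, 273.8 and 123.2 on the uterine arrays. The summed signal of 10 endothelial markers was between 5536 and 6684 in ovary and between 3503 and 6557 on the uterine arrays, and the part of endothelium in the difference was not tested.

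CCL2, which attracts monocytes and is known for its part in the regressing corpus luteum, read 1748, 1041 and 970 in ovary and 233.5, 364 and 224 on the uterine arrays. Over the stages its mean was 1253 ± 430.3 (SD, n = 3 arrays) in ovary and 274 ± 78.5 on the uterine arrays, and every ovary array was brighter than every uterine array (4.53-fold, adjusted p = 0.0306 by limma). CXCR4, the receptor of CXCL12 on leukocytes and endothelium, read 2668, 1072 and 1078 in ovary against 933, 509.5 and 408 on the uterine arrays. Here too the tissues did not overlap, but the lowest ovary signal was near the highest uterine one (2.51-fold, adjusted p = 0.0428 by limma). The macrophage markers, to which CCL2 is related as an attractant, summed to between 15677 and 25902 in ovary and between 16497 and 18315 on the uterine arrays, and 0 of the 11 tested were called by limma (4 had an unadjusted p under 0.05). In bulk tissue, fewer cells of a type and less RNA per cell cannot be told apart.

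CXCL16, a chemokine anchored in the membrane that also serves as a scavenger receptor, was the gene called in the other direction. It read 1835, 1707 and 3230 on the uterine arrays and 775, 591 and 665 in ovary. The uterine arrays all lay above the ovary arrays, with the late pregnant one the highest (3.21-fold, adjusted p = 0.0342 by limma). The 14 uterine epithelium markers summed to between 69323 and 121199 on the uterine arrays and between 2992 and 9122 in ovary, and the part of epithelium in the CXCL16 difference was not tested. CXCR6, the receptor of CXCL16, was above the floor on the non-pregnant uterine array alone (185.8). The calls depended on the arrays: without the early pregnant arrays 0 of the 4 passed, with adjusted p of 0.123 for CCL21, 0.183 for CCL2, 0.251 for CXCL16 and 0.253 for CXCR4. Without the non-pregnant or the late pregnant arrays only CCL21 passed among them (adjusted p = 0.0318 and 0.0412), and without the filter on low signals 0 passed, with adjusted p of 0.217 for CXCR4 to 0.253 for CCL2. CXCR4 also missed the threshold with the floor at the 60th percentile (adjusted p = 0.0575) and without stage as a term (adjusted p = 0.138).

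**Figure D2:**
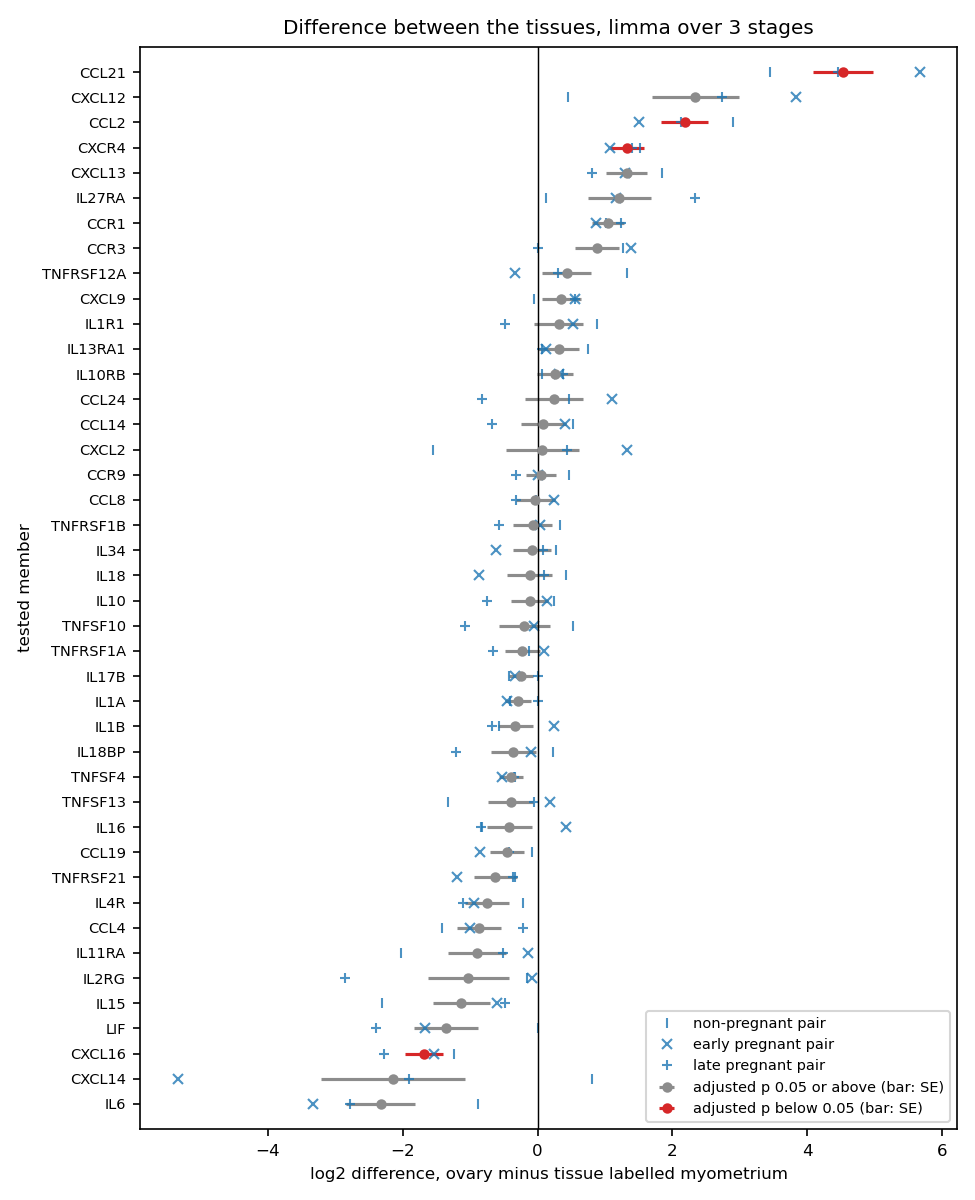
Log2 difference, ovary minus tissue labelled myometrium, of the 42 tested genes, with circles for the limma estimate over 3 stages, bars for its SE, and blue marks for the difference within each stage's pair of arrays. The 4 called genes are red; CCL21, CCL2 and CXCR4 lie to the right at every stage and CXCL16 to the left, while CXCL14 and CXCL12 spread widely between stages.

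Interleukin 6 and LIF, the ligands that share gp130, had their signal above the floor on uterine arrays only, without passing the test. IL6 read 48.8, 28.9 and 42.1 in ovary, all under the floor, and 151.4, 820.4 and 563.5 on the uterine arrays. With the floor in place of the ovary signals, IL6 was at least 5.04-fold higher on the uterine arrays (log2 difference -2.33, adjusted p = 0.0639 by limma). The size is set by the floor: it was -3.33 with the floor at the 25th percentile (adjusted p = 0.0395), -2.97 with a pseudocount in its place (adjusted p = 0.0371) and -0.98 with the floor at the 60th percentile (adjusted p = 0.184). IL6 also passed without the non-pregnant arrays (adjusted p = 0.0479). LIF lay under the floor on 4 of the 6 arrays, so the size of its log2 difference is set by the floor too. It was -1.36 with the main floor (adjusted p = 0.175 by limma), -2.10 with the lower and -0.30 with the higher floor.

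An unadjusted p under 0.05 was reached by 13 of the 42 genes with the 4 called (31%, against 21.9% of all probe sets, 3471 of 15882). CXCL13, which attracts B cells, had a difference of 1.32 ± 0.30 (adjusted p = 0.0725 by limma), and CCR1, a receptor for inflammatory chemokines, one of 1.04 ± 0.24 (adjusted p = 0.0736). Neither overlapped between the tissues, and the late pregnant uterine signal of each lay under the floor. IL27RA, a receptor chain for interleukin 27, had a difference of 1.21 ± 0.47 and IL15, which maintains natural killer cells, one of -1.13 ± 0.42 (adjusted p = 0.213 and 0.201 by limma). CXCL12, the ligand of CXCR4, had a larger difference of 2.34 ± 0.65 (adjusted p = 0.113), made up of 0.45 at the non-pregnant, 3.83 at the early pregnant and 2.73 at the late pregnant stage.

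No stage effect common to the tissues passed. By limma, 0 of the 42 genes were called in any of the 3 contrasts, in which 0.0% of all tested probe sets were called. At an unadjusted p under 0.05 there were 3 genes for early pregnancy and 4 for late pregnancy, each against the non-pregnant stage, and 2 for late against early pregnancy. Over all probe sets these numbers were 686, 964 and 261. As shares, these were 7.14%, 9.52% and 4.76% of the 42 genes, against 4.32%, 6.07% and 1.64% of all tested probe sets. CXCR4 was among them for both comparisons with the non-pregnant stage, with shared log2 differences of -1.09 and -1.25 (adjusted p = 0.822 and 0.711).

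Within a tissue each stage is 1 array, so the following stage comparisons have no test, and a gene is counted when its signals are 2-fold or more apart. In ovary, the counted genes were mostly lower in pregnancy. Of 40 genes with a signal over the floor on 1 or both arrays, 3 were 2-fold or more lower in the early pregnant than in the non-pregnant ovary (7.50%, against 2.15% of all probe sets) and 1 was higher (2.50%, against 2.45%). Of 39 genes, 6 were lower in late pregnancy than in the non-pregnant ovary (15.4%, against 3.65%) and 0 were higher (against 2.92%). The median log2 ratio was -0.048 in the early and -0.44 in the late comparison, against -0.017 and -0.064 over all probe sets.

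CXCR4, CXCL13 and CXCL14 were the 3 genes lower in both comparisons. CXCR4 read 2668 in the non-pregnant ovary and 1072 and 1078 in the pregnant ones, so that the pregnant ovaries were 2.49-fold and 2.48-fold lower and close to each other. CXCL13 read 470.8, 216 and 142.3, which is 2.18-fold and 3.31-fold lower. CXCL14, a chemokine of epithelia and stroma, read 1489, 451 and 436, which is 3.30-fold and 3.42-fold lower.

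Late in pregnancy, 3 further genes passed 2-fold in ovary. TNFRSF1B, the inducible receptor of TNF, read 1049, 816 and 456 (2.30-fold lower, late pregnant against non-pregnant). TNFSF10, a ligand that can induce apoptosis and is also called TRAIL, read 275.9, 196.5 and 96.5 (2.86-fold lower). CCR3, the eosinophil receptor, read 195.7, 214 and 57.9 and was at least 2.40-fold lower. It falls outside the rule for described genes and is named because so few were counted. The ubiquitous TNF receptor TNFRSF1A read 1070, 1065 and 863 in the same ovaries and 1167, 990 and 1360 on the uterine arrays, and was under 2-fold in all comparisons.

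Macrophage markers were lower on the same ovary arrays. Of 11 measured, 3 were 2-fold or more lower in early pregnancy and 5 in late pregnancy, with medians of -0.67 and -0.92 and a summed signal of 25902, 17924 and 15677. ITGAM lay under the floor on every array. T and NK cell markers summed to 1559, 1256 and 1069 in the ovaries, with 1 of 9 and 1 of 8 measured markers 2-fold or more lower. The part of these cells, and of the GAPDH ratio and hybridisation controls given above, in the lower chemokine signals was not tested. Smooth muscle markers were high in the early pregnant ovary, with a summed signal of 56750, 72077 and 45934. Of 11 measured, 5 were 2-fold or more higher there than in the non-pregnant ovary (median 0.92), and 7 were lower in the late than in the early pregnant ovary (median -1.13). The part of this tissue in the ovary values of CXCL12 and the other genes was not tested.

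CXCL2, a chemokine that attracts neutrophils, was the gene counted as higher in the early pregnant ovary, with 84.6, 204.7 and 110.8 (2.42-fold, early pregnant against non-pregnant). CCL21 lay just under the 2-fold mark, 1.98-fold and 1.96-fold higher in the early and late pregnant ovary, and passed it in both when arrays were centred on their median. That centring gave 2 higher and 3 lower genes in the early and 1 higher and 6 lower genes in the late comparison, and it moved the median of all probe sets by 0.14 in the late comparison. Between the pregnant ovaries, 3 of 38 genes were 2-fold or more lower in late pregnancy (7.89%, against 2.71% of all probe sets) and 0 higher (against 1.5%). These were CCR3, TNFSF10 and CXCL12, the last with 1003, 1434.5 and 697 in the order of the stages (2.06-fold lower). With arrays centred on the median CCR3 alone remained.

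**Figure D3:**
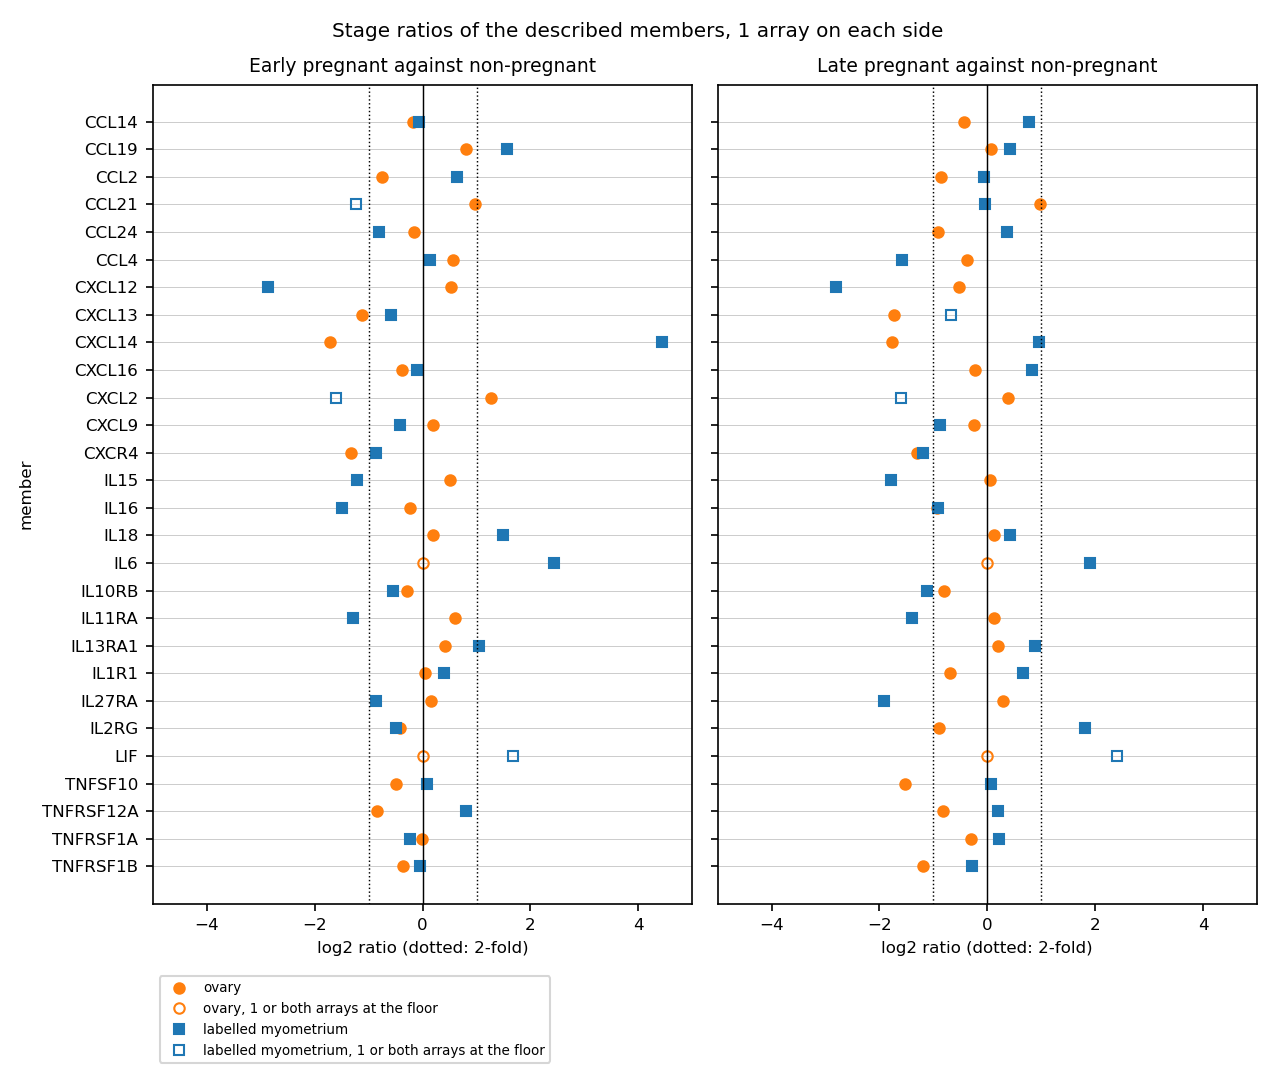
Log2 ratio of the 28 described genes for early pregnant against non-pregnant and late pregnant against non-pregnant, with circles for ovary, squares for tissue labelled myometrium, open symbols where an array was at the floor, and dotted lines at 2-fold. The ovary points past the dotted lines are those of CXCR4, CXCL13, CXCL14, CXCL2, TNFSF10 and TNFRSF1B, CCL21 lies just inside at 0.98 and 0.97, and CXCL14 is 21.5-fold higher on the early pregnant uterine array.

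On the uterine arrays, IL6 and LIF were 2-fold or more higher at both pregnant stages than without pregnancy, and CXCL14 in early pregnancy. CXCL12, IL15 and IL11RA were 2-fold or more lower at both pregnant stages. Of 46 measured genes, 6 were 2-fold or more higher on the early pregnant than on the non-pregnant uterine array (13.0%, against 8.76% of all probe sets) and 9 lower (19.6%, against 10.3%). On the late pregnant array, 3 of 46 were higher (6.52%, against 10.9%) and 11 lower (23.9%, against 12.6%). The median log2 ratios were -0.11 and -0.023, against -0.17 and -0.14 over all probe sets.

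CXCL14 had the largest stage ratio of the genes with both signals above the floor. It read 848 on the non-pregnant, 18246 on the early pregnant and 1634 on the late pregnant uterine array. The early pregnant signal was thus 21.5-fold above the non-pregnant and 11.2-fold above the late pregnant one, with the late and non-pregnant arrays 1.93-fold apart. A further CXCL14 probe set read 453, 6953 and 734, with a log2 ratio of 3.94 for early pregnant against non-pregnant where the brighter probe set gave 4.43. Between tissues the stages disagreed in sign, 0.81 at the non-pregnant, -5.34 at the early and -1.91 at the late pregnant stage, and the difference did not pass (-2.14 ± 1.07, adjusted p = 0.317 by limma).

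IL6 was 5.42-fold higher on the early and 3.72-fold higher on the late pregnant than on the non-pregnant uterine array, so both pregnant arrays stood above the non-pregnant one. LIF, which in several mammals is needed for implantation, read 10.1, 260.0 and 431 on the uterine arrays and at most 41.8 in ovary. It was at least 3.18-fold higher in early and at least 5.28-fold higher in late pregnancy, and its pregnant uterine signals were its only ones above the floor. IL6R, the binding chain for interleukin 6, lay under the floor on all arrays, and SOCS1, an inhibitor that cytokine signalling induces, read 66.2, 464.6 and 110.7 on the uterine arrays, at least 5.69-fold higher in early pregnancy. It was the 1 of 12 measured JAK, STAT and related genes counted as higher there (median log2 ratio -0.14), and SOCS3, another such inhibitor, lay under the floor on all arrays.

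IL18, a cytokine of epithelia and macrophages that is released by caspase cleavage, was counted as higher in early pregnancy alone. It read 529, 1488 and 713 on the uterine arrays (2.81-fold, early pregnant against non-pregnant) and 706, 813 and 765 in ovary. Its receptor chain IL18R1 lay under the floor. CCL19 was 2.96-fold higher and IL13RA1, a receptor chain for interleukins 4 and 13, 2.06-fold higher on the early pregnant uterine array, the latter reading 197.2, 406 and 364. TNFRSF21, a death domain receptor, lay just under the mark at 1.99-fold and passed it with quantile normalization or centring on the median.

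The common gamma chain IL2RG, shared by the receptors of several interleukins, stood out on the late pregnant uterine array. It read 200.6, 142.0 and 703 on the uterine arrays and 179.8, 134.3 and 97.1 in ovary. The late pregnant array was 3.50-fold above the non-pregnant and 4.95-fold above the early pregnant uterine array. The sum of T and NK cell markers was 4045, 1431 and 539, lowest on that same array. The part of these cells in the IL2RG signals was not tested. Between the pregnant uterine arrays, 3 of 41 genes were 2-fold or more higher in late pregnancy (7.32%, against 5.87%) and 5 lower (12.2%, against 5.62%). CCL24, an eosinophil attractant, was 2.25-fold higher there, with 518, 298 and 670.0 in the order of the stages, and CCL21 at least 2.28-fold higher. The lower genes were CXCL14, CCL4, CCL19, IL18 and IL27RA.

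Markers of trophoblast, and some of other lists, were higher on the same pregnant uterine arrays. Of 7 measured, 5 were 2-fold or more higher on the early pregnant than on the non-pregnant uterine array, and 4 of 6 on the late pregnant one. PAG6, a pregnancy-associated glycoprotein of the placenta, read 75.2, 22022 and 28500, and the trophoblast factor GATA3 read 59.2, 3168 and 2778. Interferon gamma, IFNG, read 74.0, 1720 and 64.8, above the floor on the early pregnant uterine array alone. In ovary the 7 markers summed to between 636 and 1462.

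In the other lists a smaller share of the measured genes was 2-fold or more higher. In both pregnant stages 3 of 8 measured luteal and granulosa markers were 2-fold or more higher on the uterine arrays, the steroid synthesis genes STAR, CYP11A1 and HSD3B1, with STAR at 13.2, 5573 and 6907. In early pregnancy 0 of the 8 were lower, and in late pregnancy 1 was, FST (4.66-fold). The median log2 ratio of the 8 was 0.47 in early and -0.077 in late pregnancy. Of 14 uterine epithelium markers, 3 were higher in early and 4 in late pregnancy, among them ACP5 (38.4-fold and 56.8-fold) and SPP1 (21.6-fold and 21.7-fold), while 4 and 1 were lower. Of 11 macrophage markers 2 were higher in both stages, CD14 and AIF1 (the latter 5.39-fold and 4.41-fold), and 1 was lower in each. The median log2 ratio of the 11 was -0.75 in early and -0.17 in late pregnancy. The endothelial markers counted as higher were 2 of 8 and 4 of 9. Among neutrophil markers these were 2 of 5 and 2 of 4, with 0 lower. The part of these tissues and of the conceptus in the CXCL14, IL6, LIF and IL18 signals was not tested.

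CXCL12, a chemokine of stromal cells, had the largest reduction among genes measured above the floor on all 3 uterine arrays in early and late pregnancy. It read 737, 100.6 and 105.1 there, 7.32-fold and 7.01-fold lower in early and late pregnancy, while the ovaries read 1003, 1434.5 and 697. A further CXCL12 probe set read 715, 67.8 and 5.2 on the uterine arrays, the last 2 signals under the floor. Its receptor CXCR4 read 933, 509.5 and 408, which is 2.29-fold lower in late pregnancy, so ligand and receptor were both brightest on the non-pregnant uterine array.

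IL15 and IL11RA were high on the non-pregnant uterine array and lower on both pregnant ones. IL15 read 456, 196.9 and 132.7 (2.31-fold and 3.43-fold lower) and at most 130.2 in ovary. IL11RA, the receptor chain for interleukin 11, which acts in the decidual response of rodents, read 1501, 612 and 573 (2.45-fold and 2.62-fold lower) and at most 555 in ovary. For both genes all uterine arrays lay above all ovary arrays. CXCL2 read 248.4, 47.8 and 74.8, at least 3.04-fold lower in both pregnant stages, and IL16, an attractant of CD4 T cells, read 277.2, 98.6 and 146.6 (2.81-fold lower in early pregnancy). CCL21 was at least 2.35-fold lower on the early pregnant uterine array.

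Receptors and ligands of lymphocytes and plasma cells shared this pattern at lower signals. TNFRSF17, the plasma cell receptor BCMA, read 217.7 on the non-pregnant uterine array and at most 12.4 on the other 5 arrays, which makes the pregnant uterine arrays at least 2.66-fold lower. TNFSF13, its ligand APRIL, read 205.8, 49.2 and 84.9 on the uterine arrays, at least 2.52-fold lower in early and 2.42-fold lower in late pregnancy. CXCR6, found on memory T and NK cells, read 185.8, 39.7 and 34.5 (at least 2.27-fold lower in both). A further TNFSF13 probe set read 93.9, 7.8 and 102.9 on the uterine arrays, with log2 ratios of -0.20 in early and 0.13 in late pregnancy, so it did not show the lower late pregnant signal. With probe sets of a gene averaged, the lower genes numbered 8 in early and 10 in late pregnancy. These 3 genes were singled out after their values were seen, since their signals lay below the level set for described genes.

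Lymphocyte markers were lower on the same pregnant arrays. Of 9 measured T and NK cell markers, 7 were 2-fold or more lower in early and 8 in late pregnancy, with medians of -1.51 and -2.44, whereas CD4 and PRF1 lay under the floor on every array. CD3D read 498, 110.6 and 16.5. JCHAIN, the joining chain of secreted antibody, read 6347, 1224 and 96.6, while CD79B, the only other B or plasma cell marker with a probe set, was under the floor throughout. Whether the number of lymphocytes had a part in the lower IL15, CXCR6, TNFRSF17 and TNFSF13 signals was not tested.

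In late pregnancy 4 further genes passed 2-fold downward on the uterine arrays. CCL4, an attractant of monocytes and T cells, read 297.3, 326.5 and 99.0, so that the late pregnant array stood below both others (3.00-fold and 3.30-fold). IL27RA read 441, 241.4 and 117.5, 3.75-fold lower in late pregnancy than without pregnancy, while the ovaries read 484, 539 and 595. IL10RB, a chain shared by the receptors of interleukin 10 and related cytokines, read 262, 180.2 and 121.0 (2.17-fold lower), and CXCR4 is given above.

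**Figure D4:**
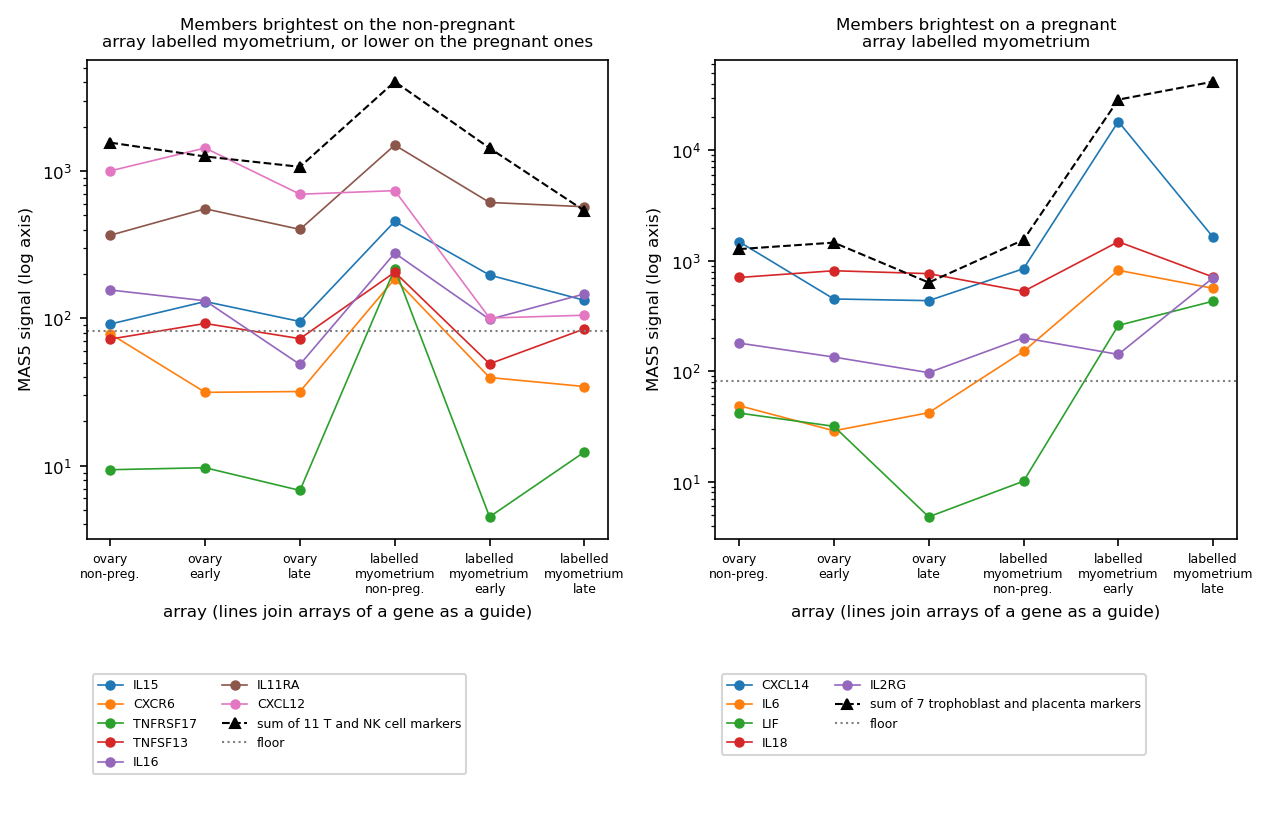
MAS5 signal on a log axis on each of the 6 arrays, with coloured points for single genes, black triangles for the summed signal of a marker list and a dotted line at the floor of 81.7. Left, IL15, IL11RA, IL16, CXCR6, TNFRSF17, TNFSF13 and CXCL12 lie highest on the non-pregnant among the uterine arrays, as does the sum of T and NK cell markers; right, CXCL14, IL6, LIF and the sum of trophoblast markers are higher on the pregnant uterine arrays, and IL2RG on the late pregnant one.

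The remaining described genes stayed within 2-fold in all stage comparisons. TNFRSF12A, the receptor of the cytokine TWEAK, read 2125, 1176 and 1199.5 in ovary and 849.5, 1489 and 976 on the uterine arrays. CXCL9, a chemokine induced by interferon gamma, read 654, 744 and 548.5 in ovary and 679, 509 and 371 on the uterine arrays. CCL14 lay between 449.8 and 798 on the 6 arrays and IL1R1, the signalling receptor of interleukin 1, between 308 and 584. Without replicate arrays, differences of this size cannot be set against an error. A further IL1R1 probe set lay between 32.6 and 68.6, under the floor on all 6 arrays.

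Of the genes of the pathways downstream and of other cytokines, those called between the tissues were 1 of 13, 0 of 13 and 1 of 11, numbers too small to set apart from the 2.84% and 2.23% called over all probe sets. Of 13 tested JAK, STAT and related genes, 1 was higher in ovary and 0 on the uterine arrays, with 3 at an unadjusted p under 0.05. This was JAK3, the kinase bound to the common gamma chain, with 404.7, 323.6 and 286.2 in ovary and uterine signals all under the floor (at least 4.10-fold with the floor in place of all uterine signals, log2 difference 2.03 ± 0.26, adjusted p = 0.0182 by limma). Of 13 tested NF-kappa-B pathway genes 0 passed, with 3 at an unadjusted p under 0.05. Of 11 tested cytokines and receptors with other symbols, lymphotoxin beta, LTB, was higher in ovary, with 329, 331 and 288.3 against 149.0, 112.4 and 38.0, the last under the floor (at least 2.84-fold, 1.51 ± 0.29, adjusted p = 0.0459 by limma), and 0 were higher on the uterine arrays.

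Several of the genes are neighbours on the chromosome. In RefSeq's gene order for the Sscrofa11.1 assembly all 67 genes were found, and 25 fell into 9 runs with at most 5 protein-coding genes between members. Members of a run differed in their signals. CCL21 lies in a run with CCL19, CCL27 and IL11RA, of which CCL21 was bright in ovary and IL11RA on the non-pregnant uterine array. IL4, IL5 and IL13 form a run in which all 3 were under the floor on every array. Of the run of chemokine receptors CCR9, CXCR6, CCR1, CCR3 and CCR2, CCR1 was above the floor on 5 arrays and the others on 1 or 2.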

How the data were processed

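Per the submitters' processing notes, the authors made the deposited intensity values with MAS5, which condenses the probes of a set into a signal; the sources used here give no version. The trimmed mean was 500.1 on every array. Such scaling hides changes in total RNA. Of 24123 probe sets, 124 controls were left out. Signals were raised to a floor of 81.7 before log2. The tissue comparison used limma (version 3.58.1, R 4.3.3; tissue and stage as terms, intensity trend, 2 residual degrees of freedom, threshold 0.05) on 15882 probe sets, those with 2 or more arrays over the floor. Python 3.11.15 did the rest. The fit was tested on simulated data. Alternatives were other floors (33.7, 246.2), a pseudocount of 16, other scalings, averaged probe sets, other fits and leaving out a stage. Described genes passed the tissue test, were 2-fold or more apart between stages with the brighter signal above 246.2, or had 1 of the 15 highest means. Genes and lists were chosen with earlier results of these data known. The number of arrays limits the precision.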

Additional observations from a re-analysis of the deposited data

Results flagged for a closer look

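CXCL14 and CXCL2 were 2-fold or more apart in opposite directions in the tissues between early pregnant and non-pregnant sows. The log2 ratio of CXCL14 was -1.72 for ovary and 4.43 for the uterine arrays, and that of CXCL2 was 1.27 for ovary and -1.60 or below for the uterine arrays, where the early pregnant signal lay under the floor. With 1 array on each side the differences between the tissues were not tested.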

How the results depend on the processing

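Stage was a term of the tissue fit, which sets the arrays of a stage against each other; without it 2 genes were higher in ovary and 1 on the uterine arrays. The labels carry no replicate numbers for another pairing. The counts of genes higher in ovary (3) and higher on the uterine arrays (1) became 0 and 0 without the filter on low signals or without the early pregnant arrays, 1 and 1 without the non-pregnant arrays, and 1 and 0 without the late pregnant arrays; the last 3 fits have 1 residual degree of freedom. With the floor at the 25th percentile or a pseudocount of 16, 2 were higher on the uterine arrays, IL6 being added. In the fit without the non-pregnant arrays, the 1 gene higher on the uterine arrays was IL6, and CXCL16 was no longer called. In ovary, early pregnant against non-pregnant, the higher gene became 2 with the lower floor, the pseudocount or centring on the median and 0 with the floor at the 60th percentile, and the 3 lower genes became 5 with the lower floor. Late pregnant against non-pregnant, the 0 higher became 1 with the lower floor, the pseudocount or centring, and the 6 lower became 12, 10 and 3 with the lower floor, the pseudocount and the higher floor. Late against early pregnant, the 0 higher became 1 with the lower floor or the pseudocount, and the 3 lower became 6, 5, 1 and 1 with the lower floor, the pseudocount, the higher floor and centring. On the uterine arrays the higher floor left 3 of the 6 higher and 2 of the 9 lower genes in early pregnancy, 3 of the 11 lower in late pregnancy and 2 of the 5 lower between these stages, since it leaves fewer signals measured. Of the stage ratios of described genes at 2-fold or more, 224 of 252 values under the alternatives stayed at 2-fold or more in their direction, 28 dropped under it and 0 reversed. Of 164 values of tissue differences, 0 reversed. Low signals limit most interleukins, whose values near the floor give bounds.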
